A study of Mus musculus with 16 samples.

Results

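Serum amyloid A genes and other secreted acute-phase proteins were examined in lumbar dorsal root ganglia (DRG), where the somata of sensory neurons lie among glial and immune cells. The 6 genes, Saa1, Saa2, Saa3, Lcn2, Lrg1 and Timp1, were taken by symbol from the 36722 genes of the deposited table, and all 6 were found. They were selected on levels and group differences already seen in these same libraries. All 3 comparisons count as used in that choice, so the values of the 6 genes are given as a description and no p-value of theirs is printed. All libraries came from C57BL/6 mice with an intraplantar injection of 20 µl of 2% carrageenan, which inflames the paw. After 6 days the mice received an intrathecal injection, and DRGs L3 to L5 were taken 6 hours later. The groups were IL4-10 FP, a fusion protein of both cytokines (1 µg, n = 6), the unlinked cytokines IL4+IL10, called the combination here (0.5 µg each, n = 5), and PBS as vehicle (n = 5). No library analysed here came from an animal without carrageenan. The title of the series sets the transcriptome of the fusion protein against that of the combination.

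Acute-phase proteins are secreted proteins whose production rises in inflammation, chiefly in the liver but also in local macrophages, endothelium and glia. IL-6 and its relatives, which signal through the shared receptor gp130 and the transcription factor STAT3, drive the response together with IL-1 and TNF, which act through NF-kB and C/EBP factors. IL-10 also signals through STAT3, and IL-4 signals mainly through STAT6. Saa1 and Saa2 encode the circulating serum amyloid A apolipoproteins of high-density lipoprotein, and Saa3 encodes the form made outside the liver by macrophages and other cells in mice. Lcn2 encodes lipocalin 2, which binds bacterial siderophores and withholds iron. Lrg1 encodes a leucine-rich glycoprotein that modifies TGF-beta signalling in endothelium, and Timp1 encodes a secreted inhibitor of matrix metalloproteinases.

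The 3 amyloid genes lie together on chromosome 7 of GRCm38, with Saa3 at 46711998 to 46715700, Saa1 at 46740497 to 46742980 and Saa2 at 46751790 to 46754313. Lcn2 lies on chromosome 2 (32384633 to 32388252) and Lrg1 on chromosome 17 (56119678 to 56122001). Timp1 lies on chromosome X (20870166 to 20874735) inside the span of Syn1, a synaptic vesicle gene of neurons, on the opposite strand. The exons of both genes share 0 bases. The strand setting of the counting is not given in the sources used here, so reads from unspliced Syn1 cannot be told apart from Timp1 where they cover its exons. Syn1, named for its place and not by the rule for named genes, fell with the fusion protein (-0.77 ± 0.16 on the log2 scale, adjusted p = 0.00234) and with the combination (-0.60 ± 0.17, adjusted p = 0.00914) against vehicle.

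Promoters of 300 bases, from 250 before to 50 after the start, were available for all 6 genes from RefSeq (GRCm38.p6). They were searched on both strands for the C/EBP motif TTGCNNAA, for the STAT motif TTCNNNGAA and for the NF-kB consensus. The C/EBP motif was present in 4 of the 6 promoters and in 10.8% of all 32851 promoters. Those 4 are shown because they carry the only motif matches found in the 6, and capitals mark the C/EBP match. The STAT motif, held by 8.3% of all promoters, and the NF-kB consensus, held by 8.5%, were in none of the 6 windows.
Saa1, chr7:46742931-46743230, minus strand: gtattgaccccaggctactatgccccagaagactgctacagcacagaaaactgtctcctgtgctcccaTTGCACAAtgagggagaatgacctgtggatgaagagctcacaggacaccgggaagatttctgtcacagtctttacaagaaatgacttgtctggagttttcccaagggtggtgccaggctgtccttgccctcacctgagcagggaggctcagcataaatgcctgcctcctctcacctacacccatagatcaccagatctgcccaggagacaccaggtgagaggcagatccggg
Saa2, chr7:46751583-46751882, plus strand: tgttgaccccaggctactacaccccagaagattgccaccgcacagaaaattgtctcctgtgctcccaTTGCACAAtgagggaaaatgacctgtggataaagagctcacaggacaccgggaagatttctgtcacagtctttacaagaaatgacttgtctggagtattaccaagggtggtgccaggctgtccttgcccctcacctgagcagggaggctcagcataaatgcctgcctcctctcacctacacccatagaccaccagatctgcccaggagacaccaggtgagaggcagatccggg
Saa3, chr7:46715627-46715926, minus strand: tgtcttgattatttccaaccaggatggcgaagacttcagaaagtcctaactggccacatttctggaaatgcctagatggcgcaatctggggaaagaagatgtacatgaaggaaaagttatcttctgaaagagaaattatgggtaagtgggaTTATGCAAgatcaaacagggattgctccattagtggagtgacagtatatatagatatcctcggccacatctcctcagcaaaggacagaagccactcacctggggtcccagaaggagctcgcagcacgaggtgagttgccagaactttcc
Lcn2, chr2:32387690-32387989, minus strand: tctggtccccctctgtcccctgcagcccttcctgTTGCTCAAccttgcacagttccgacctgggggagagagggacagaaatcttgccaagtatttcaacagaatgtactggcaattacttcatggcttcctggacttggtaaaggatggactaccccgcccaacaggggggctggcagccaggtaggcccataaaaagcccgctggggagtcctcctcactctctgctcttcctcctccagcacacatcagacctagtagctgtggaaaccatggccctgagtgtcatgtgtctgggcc

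The promoters of Saa1 and Saa2 were identical at 287 of 301 aligned positions (95.3%), with the same match, ttgcacaa, at 182 and 183 bases before the start. Among the other pairs of the 6 promoters the identity was 48.8% to 54.2%. The messenger RNAs of both genes were compared by exact shared stretches, a stricter measure that cannot be set against the promoter identity. Of the 50-base stretches in the coding transcript models, 13.2% of those of Saa1 were also in Saa2 and 11.2% of those of Saa2 were also in Saa1, so part of the reads of either gene could be split or dropped by the counting. Saa3 shared 9 such stretches with Saa1 and 0 with Saa2.

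The deposited values are variance-stabilised log2 values. They decode to whole numbers, called scaled values here, that are not read counts, and the read depth is unknown. Scaled values summed to 16707007 to 19083947 in fusion protein, 18192127 to 20879857 in combination and 17228512 to 18733358 in vehicle libraries. The lowest scaled value was 1, apart from 34 values at 0. On the deposited log2 scale a scaled value of 0 stood at 5.99 and a scaled value of 1 at 6.17. Log2 differences of genes with low values are therefore smaller than the log2 ratios of their scaled values. Whether every library is a mouse of its own is not stated, so errors measure the spread between these samples, which may be technical. In bulk tissue, fewer cells of a type and less RNA per cell cannot be told apart. The correlation of fusion protein replicate 1 with replicates 5 and 6 over all tested genes, 0.972, was the lowest within any group, where pairs reached 0.996. With replicates 2, 3 and 4 it was 0.987, 0.984 and 0.985. The labels give replicates 1 to 4 of this group the numbers 5 to 8, and replicates 5 and 6 the numbers 12 and 19. Results that rest on fusion protein replicate 1 are also given without it.

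Saa3 had the largest difference of the 6 genes. In fusion protein libraries its scaled value was 318 at the lowest, 450.0 at the median and 2715 at the highest. Combination replicates 1 to 5 stood at 25, 32, 13, 33 and 12, and vehicle replicates 1 to 5 at 59, 26, 4, 11 and 37. All 6 fusion protein libraries lay above every library of the other groups, which overlapped each other almost fully. On the log2 scale Saa3 was higher by 2.62 ± 0.39 (SE) with the fusion protein than with vehicle, and by 2.64 ± 0.39 than with the combination. The ratio of mean scaled values, fusion protein over vehicle, was 29.3, and 15.4 without fusion protein replicate 1. The combination differed from vehicle by -0.02 ± 0.41, a value whose sign changed under 3 kinds of alternative processing. Saa3 passed the filter on low values through its fusion protein libraries, since its mean log2 values of 6.83 in the combination and 6.85 in vehicle lay under the limit of 6.99.

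Saa1 and Saa2 were more variable in vehicle than Saa3. Saa1 had scaled values of 145 at the lowest, 303.5 at the median and 1189 at the highest in fusion protein libraries, 37, 26, 36, 5 and 78 in combination replicates 1 to 5, and 276, 71, 15, 9 and 171 in vehicle replicates 1 to 5. Saa2 ran at 130, 243.5 and 867 (lowest, median, highest) in fusion protein libraries, 22, 15, 11, 9 and 23 in combination replicates 1 to 5, and 219, 42, 10, 5 and 130 in vehicle replicates 1 to 5. For both genes every fusion protein library lay above every combination library, while vehicle replicates 1 and 5 reached into the fusion protein range. The log2 difference of the fusion protein from vehicle was 1.47 ± 0.46 for Saa1 and 1.43 ± 0.41 for Saa2, and from the combination 1.97 ± 0.46 and 2.01 ± 0.41. The combination differed from vehicle by -0.50 ± 0.48 in Saa1 and by -0.58 ± 0.43 in Saa2, about 1 SE in each. Without vehicle replicate 1, the highest vehicle library, these were -0.22 in Saa1 and -0.30 in Saa2. The ratio of mean scaled values, combination over vehicle, was 0.336 in Saa1 and 0.197 in Saa2, with vehicle replicate 1 included. Fusion protein over vehicle it was 4.33 in Saa1 and 4.46 in Saa2, and 3.01 and 3.21 without fusion protein replicate 1. The mean log2 values of both genes in the combination, 6.99 (Saa1, just under the limit) and 6.70 (Saa2), would not have passed the filter.

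The ratio of Saa1 to Saa2 varied least in the fusion protein libraries. It ran between 1.115 and 1.38 over the 6 fusion protein libraries, between 1.26 and 1.80 in vehicle and between 0.556 and 3.39 in the combination. Both genes had low values in the combination. In vehicle replicates 3 (15 and 10) and 4 (9 and 5) the ratio was 1.5 and 1.8. The source of the wider range in the combination was not tested. Saa3 made up 49.99% of the summed scaled value of the 3 amyloid genes at the median of the fusion protein libraries (26.2% to 56.9%). That share was 29.8% (10.6% to 70.2%) in the combination and 13.8% (10.7% to 44.0%) in vehicle. The ranges of the 3 groups overlapped. Saa4, the constitutive member of the family in the liver, named for its kinship, ran at scaled values of 1 to 5 in fusion protein libraries, at 1 in every combination library and at 1 to 2 in vehicle.

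Lcn2 was detected well in every library. Its scaled value was 478 at the lowest, 652.5 at the median and 1639 at the highest in fusion protein libraries, 461, 234, 380, 234 and 265 in combination replicates 1 to 5, and 585, 404, 494, 181 and 288 in vehicle replicates 1 to 5. The fusion protein group lay wholly above the combination, and 4 of its 6 libraries lay above every vehicle library. The log2 difference of the fusion protein was 0.84 ± 0.28 from vehicle and 1.04 ± 0.28 from the combination, and the combination differed from vehicle by -0.20 ± 0.29 (-0.07 without vehicle replicate 1).

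Lrg1 had the smallest SD within groups of the 6 genes on the log2 scale. It had scaled values of 99 at the lowest, 172.5 at the median and 324 at the highest in fusion protein libraries, 79, 27, 47, 31 and 32 in combination replicates 1 to 5, and 195, 85, 47, 61 and 86 in vehicle replicates 1 to 5. In the combination 3 of 5 libraries lay under every vehicle library, and all 5 lay under every fusion protein library. Vehicle replicate 1 exceeded 5 of the 6 fusion protein libraries. The log2 difference of the fusion protein was 0.58 ± 0.19 from vehicle and 1.05 ± 0.19 from the combination. The combination differed from vehicle by -0.47 ± 0.20, more than 2 SE, and this was the largest such difference of the 6 genes relative to its SE. It was -0.31 without vehicle replicate 1 and -0.23 with GC and length trends removed.

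Timp1 had scaled values of 606 at the lowest, 925.5 at the median and 2839 at the highest in fusion protein libraries, 437, 128, 139, 78 and 356 in combination replicates 1 to 5, and 689, 303, 215, 75 and 295 in vehicle replicates 1 to 5. Of the 6 fusion protein libraries, 5 lay above every vehicle library, and only replicate 5, at 606, lay under vehicle replicate 1. The log2 difference of the fusion protein was 1.63 ± 0.43 from vehicle and 1.94 ± 0.43 from the combination, and the combination differed from vehicle by -0.31 ± 0.44 (-0.04 without vehicle replicate 1). The direction of this last difference changed when the later label numbers were taken into account.

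**Figure D1:**
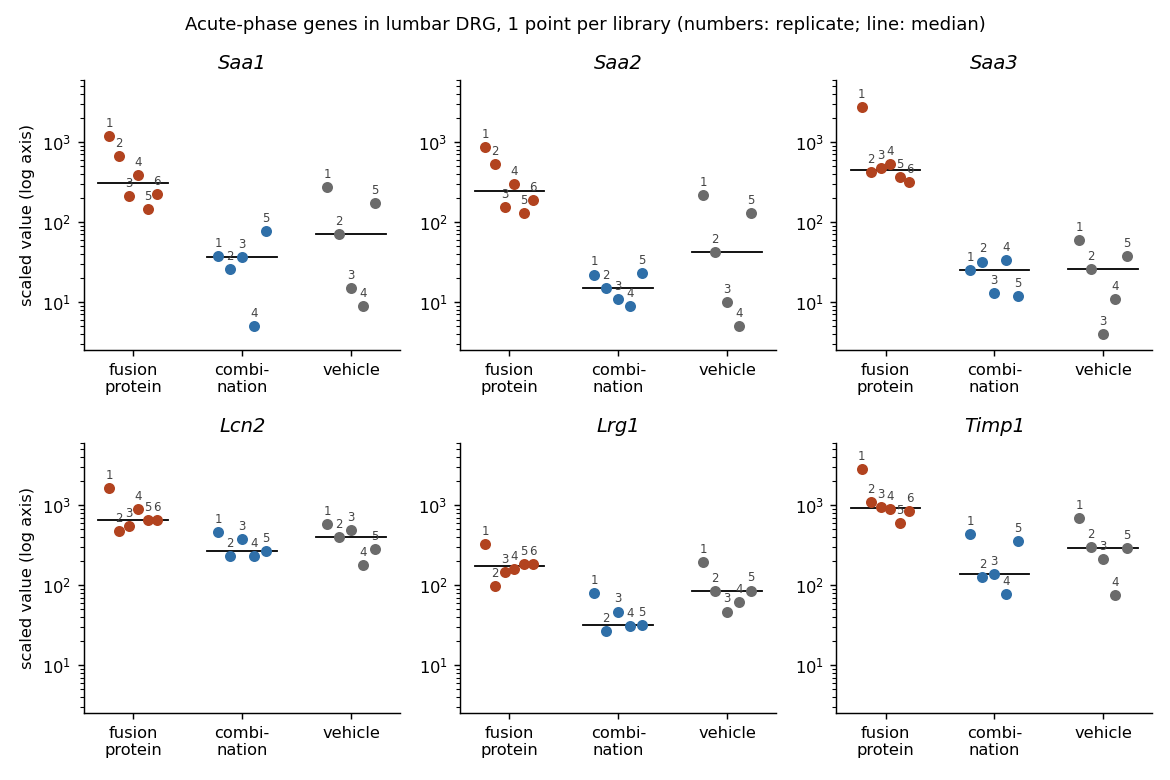
Scaled value (log axis) of the 6 genes in each library of the fusion protein, combination and vehicle groups; points carry the replicate number and lines are medians. Fusion protein replicate 1 is the highest library of its group in all 6 panels, and for Saa3 all fusion protein libraries (318 to 2715) lie above all others (4 to 59).

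Per kilobase of annotated exon, the median scaled value in fusion protein libraries was 1042 for Timp1, 249 for Lcn2, 173 for Saa3, 122 for Saa1 and for Lrg1, and 96.7 for Saa2. In vehicle it was 332 for Timp1, 154 for Lcn2, 60.4 for Lrg1, 28.7 for Saa1, 16.7 for Saa2 and 9.98 for Saa3, so Saa3 held the lowest place of the 6 with vehicle and the third with the fusion protein. In the combination it was 156.5 for Timp1, 101.0 for Lcn2, 22.7 for Lrg1, 14.5 for Saa1, 9.59 for Saa3 and 5.96 for Saa2. The libraries of neighbours in these orders overlapped, except that Timp1 (from 682) lay above Lcn2 (to 624.9) with the fusion protein and Lcn2 (from 89.2) above Lrg1 (to 56.1) with the combination. The order depends on the length used: with the longest coding transcript, Lcn2 stood above Timp1 in vehicle (442 against 334), and Saa3 took the fifth place with the fusion protein (205).

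Set side by side, the fusion protein differed from vehicle in the same direction in all 6 genes, with a median log2 difference of 1.45 (0.58 to 2.62), where the median of all 13385 tested genes was -0.02. In the fit across all tested genes (limma, adjusted p under 0.05) 6 of the 6 were called higher, beside 12.0% of all tested genes, a count from which nothing is read because the genes were proposed with this contrast known. Libraries of both groups did not overlap in 1 of the 6, Saa3, beside 7.76% of all tested genes in that direction, and 0 of 6 were wholly lower, beside 6.57%. Called lower were 0 of 6, beside 13.7%, so that 25.8% were called in either direction. The calls of Saa1, Lcn2 and Lrg1 ended without fusion protein replicate 1 (1.18, 0.64 and 0.45), which left 3 of 6. They also ended in a fit of both groups alone, without vehicle replicate 2, and in other omissions. With a late label number (12 or above) as a covariate the call of Lrg1 ended (0.57), which left 5 of 6. Without vehicle replicate 3 the called genes were Saa3, Lcn2 and Timp1, and without vehicle replicate 4 they were Saa3 and Timp1. Without replicate 1 of both groups all 6 were called. Saa3 differed by 2.22 without fusion protein replicate 1. Among the samples that the labels number 1 to 8 (4 against 4) only Saa3 was called, with differences of 2.01 for Saa1, 1.90 for Saa2, 2.99 for Saa3, 0.86 for Lcn2, 0.55 for Lrg1 and 1.91 for Timp1.

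The fusion protein differed from the combination by a median of 1.95 (1.04 to 2.64), where the median of all tested genes was -0.09. Here 6 of 6 were called higher, beside 7.35% of all tested genes, and 6 of 6 did not overlap, beside 3.09%. Called lower were 0 of 6, beside 22.2% (29.5% in either direction), and 0 of 6 were wholly lower, beside 6.44%. The median became 1.68 when fusion protein replicate 1 was left out, with Saa3 at 2.24 and Saa1 at 1.69. Among the samples numbered 12 to 19 (2 fusion protein against 5 combination libraries) the differences were 1.22 for Saa1, 1.38 for Saa2, 2.01 for Saa3, 0.87 for Lcn2, 1.10 for Lrg1 and 1.43 for Timp1, with all but Timp1 called. The call of Lcn2 ended when a late label number (12 or above) was a covariate. The combination differed from vehicle by a median of -0.39 (-0.58 to -0.02), with 0 of 6 called, beside 12.3% of all tested genes called lower and 24.2% called higher (36.5% in either direction). The median was -0.14 without vehicle replicate 1 and -0.08 with a late label number (12 or above) as a covariate. Wholly lower without overlap were 0 of 6, beside 7.91%, and wholly higher 0 of 6, beside 15.1%. Lrg1 was called lower without combination replicate 1 and without vehicle replicate 3. Both treatments were set against the same vehicle libraries. All but vehicle replicate 5 of the vehicle libraries have label numbers under 12 and all combination libraries have later ones, so that number and the combination can hardly be told apart.

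**Figure D2:**
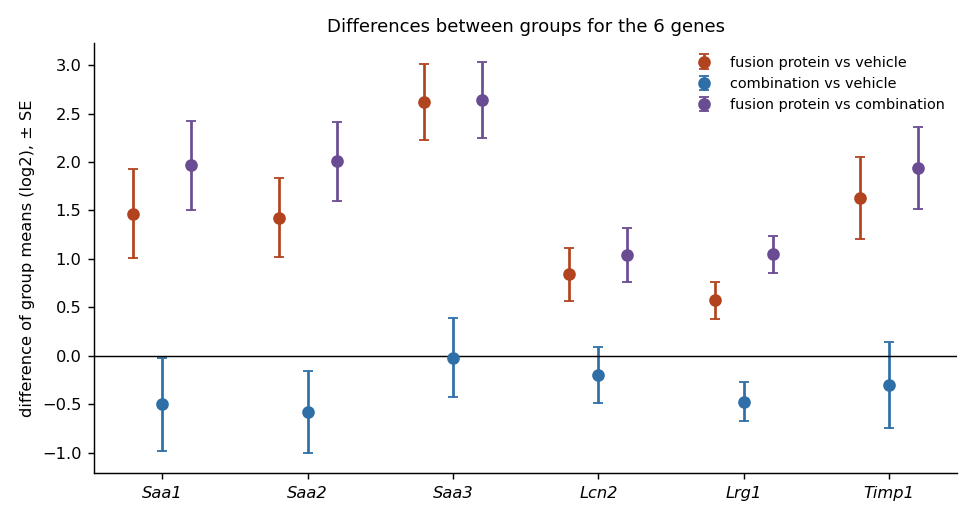
Log2 difference of group means ± SE for each of the 6 genes in the 3 comparisons (1 fit of all 16 libraries). Differences of the fusion protein from vehicle run between 0.58 and 2.62 and from the combination between 1.04 and 2.64, while those of the combination from vehicle run between -0.58 and -0.02.

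The genes varied widely within groups. The SD within groups, on the log2 scale, was 0.78 for Saa1, 0.72 for Timp1, 0.69 for Saa2, 0.67 for Saa3, 0.48 for Lcn2 and 0.35 for Lrg1, where the median of all tested genes was 0.14. Each exceeded the SD of 97.6% to 99.9% of tested genes. Within vehicle alone the SD of Saa1 was 0.91 and its highest library stood 30.7 times above its lowest. The high and low libraries were shared: fusion protein replicate 1 was the highest of its group in 6 of 6 genes, and vehicle replicate 1 was the highest of its group in 6 of 6. Vehicle replicate 4 was the lowest of its group in 4 of 6 and combination replicate 4 in 4 of 6, tied with replicate 2 for Lcn2.

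The genes most like each member over the 16 libraries are given as a description, by Pearson's r of log2 values. Saa1 and Saa2 were most like each other (0.99). Next for Saa1 were Marcksl1, an actin-regulating MARCKS relative (0.98), and Slc39a1, a zinc importer (0.97). Next for Saa2 were Tgm2, a transglutaminase (0.97), and Marcksl1 (0.97). Saa3 was most like Clec4e, a pattern receptor of macrophages (0.98), Fcgr1, the high-affinity IgG receptor (0.98), and Msr1, a scavenger receptor (0.97). Genes most like Lcn2 included Cfp, the complement factor properdin (0.95), and Isg20, an interferon-induced exonuclease (0.95). Lrg1 was nearest to Cfp (0.94), and Timp1 to Tgm2 (0.98).

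These likenesses include the differences between groups. For deviations from the group means over the same 16 libraries, Saa1 and Saa2 again were nearest to each other (0.98). Saa2 was then followed by Gfap, the intermediate filament of reactive glia (0.97), and Socs3, the feedback inhibitor of STAT3 signalling (0.96). Saa3 was nearest to Il1r2, the decoy receptor of IL-1 (0.95), Lcn2 to Nfe2, a transcription factor of blood cells (0.98), and to S100a9, a calcium-binding protein of neutrophils (0.94), Lrg1 to Zfp574 (0.91), and Timp1 to Tgm2 (0.94). Gfap had scaled values of 96 to 1448 (median 309) in fusion protein libraries, 21 to 56 (median 38) in combination and 19 to 737 (median 184) in vehicle libraries. Gfap was named by its likeness. Without fusion protein replicate 1 the coefficient of deviations was 0.61 for Saa3 with Il1r2, which therefore rests on that library. It was 0.96 for Saa1 with Saa2, 0.97 for Lcn2 with Nfe2, 0.94 for Lrg1 with Zfp574 and 0.92 for Timp1 with Tgm2.

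Other acute-phase proteins were followed in a list of 29 genes, chosen with earlier results of these data known, of which 16 passed the filter. Beside the counts of this and the later lists, 12.0% of all tested genes rose and 13.7% fell with the fusion protein against vehicle. With the combination against vehicle 24.2% rose and 12.3% fell, and 7.35% were higher and 22.2% lower with the fusion protein than with the combination. Against vehicle 9 of the 16 rose with the fusion protein, 0 fell and 7 did not pass, with a median of 0.73. Steap4, a metalloreductase, rose by 1.09 ± 0.17 (adjusted p = 0.000351), with scaled values of 1143 to 2033 in fusion protein and 366 to 858 in vehicle libraries. C3, the central complement component, rose by 1.08 ± 0.18 (adjusted p = 0.000614). Hp, the haemoglobin scavenger haptoglobin, rose by 1.69 ± 0.31 (adjusted p = 0.00157), with 301 to 943 in fusion protein and 39 to 179 in vehicle libraries. Il1rn, which encodes the IL-1 receptor antagonist, rose by 1.77 ± 0.32 (adjusted p = 0.00138). For these 4 genes all 6 fusion protein libraries lay above every vehicle library, and all alternatives run kept the call.

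With the combination 1 of the 16 rose against vehicle, 0 fell and 15 did not pass (median -0.09). It was Fgg, a fibrinogen chain (0.37 ± 0.10, adjusted p = 0.00995), whose call ended with the later label number as a covariate and after removal of GC and length trends. Against the combination 12 of 16 were higher with the fusion protein, 0 lower and 4 not past the threshold (median 0.86). They included Il1rn (1.92 ± 0.32, adjusted p = 0.00282), C3 (1.21 ± 0.18, adjusted p = 0.00104), Cd14, the co-receptor for endotoxin (1.23 ± 0.22, adjusted p = 0.00324), and Steap4 (0.96 ± 0.17, adjusted p = 0.003).

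**Figure D3:**
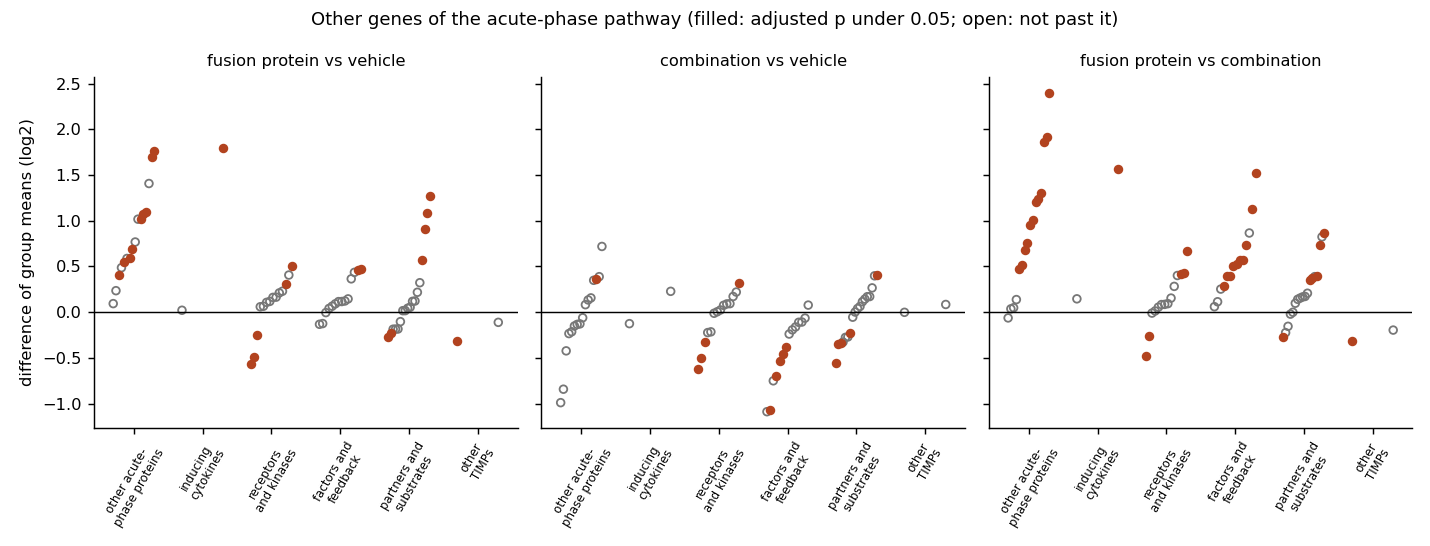
Log2 differences of the other genes of the pathway by role in the 3 comparisons, each point a gene that passed the filter, filled where its adjusted p was under 0.05. Among other acute-phase proteins 9 of 16 are filled for fusion protein against vehicle, 1 for combination against vehicle and 12 for fusion protein against combination.

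Of 11 cytokines that induce acute-phase genes, 2 passed the filter. Il1b, the pyrogenic cytokine IL-1 beta, rose with the fusion protein by 1.79 ± 0.36 against vehicle (adjusted p = 0.00255) and by 1.57 ± 0.36 against the combination (adjusted p = 0.00942). Its scaled values were 159 to 1471 in fusion protein, 35 to 91 in combination and 16 to 55 in vehicle libraries, so that no fusion protein library overlapped another group. Its call against the combination ended with the later label number as a covariate (1.12, adjusted p = 0.0558). The other tested cytokine, Clcf1, did not pass with the fusion protein against vehicle (0.02 ± 0.10, adjusted p = 0.894). Nor did it against the combination (0.15 ± 0.10, adjusted p = 0.25). Il6 lay under the filter, with scaled values of 7 to 99 (median 19.0) in fusion protein, 5 to 14 (median 8.0) in combination and 8 to 29 (median 15.0) in vehicle libraries. The ranges of Il6 overlapped between fusion protein and vehicle.

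Of 14 receptors and kinases upstream of STAT3 and NF-kB, 2 rose with the fusion protein against vehicle, 3 fell and 9 did not pass (median 0.14). Il10ra, the ligand-binding chain of the IL-10 receptor, rose by 0.50 ± 0.10 (adjusted p = 0.00154). Cntfr, the receptor chain for ciliary neurotrophic factor, fell (-0.57 ± 0.13, adjusted p = 0.00465), as did Lifr (-0.49 ± 0.11, adjusted p = 0.0035) and the kinase Tyk2 (-0.24 ± 0.07, adjusted p = 0.0136). The call of Tyk2 ended after removal of GC and length trends and without vehicle replicate 3. With the combination 1 rose against vehicle and 3 fell (median 0.02), among them Cntfr (-0.62 ± 0.14, adjusted p = 0.00202) and Tnfrsf1a, the main TNF receptor (-0.50 ± 0.16, adjusted p = 0.019). The call of Tnfrsf1a ended without vehicle replicate 1, without combination replicate 4, with the later label number as a covariate and with GC and length trends removed. Against the combination 3 were higher with the fusion protein, 2 lower and 9 not past the threshold (median 0.09), with Tnfrsf1a higher by 0.67 ± 0.15 (adjusted p = 0.00789).

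Of 14 transcription factors and feedback inhibitors, 2 rose with the fusion protein against vehicle, 0 fell and 12 did not pass (median 0.12). They included Nfkbia, the inhibitor of NF-kB (0.47 ± 0.12, adjusted p = 0.00744). The call of Nfkbia ended among samples numbered 1 to 8 (0.53, adjusted p = 0.06). Stat3 itself stood at scaled values of 5073 to 7132 in fusion protein, 5311 to 7373 in combination and 5725 to 6619 in vehicle libraries, with a difference of the fusion protein from vehicle of -0.00 ± 0.09 (adjusted p = 0.976). Socs3 did not pass against vehicle (0.44 ± 0.46, adjusted p = 0.51) and ran at 285 to 1811 in fusion protein, 115 to 159 in combination and 142 to 1102 in vehicle libraries. Cebpd (0.12 ± 0.32, adjusted p = 0.82) and Nfkbiz, an NF-kB cofactor needed for Lcn2 induction (0.15 ± 0.16, adjusted p = 0.519), did not pass either.

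With the combination 5 of these 14 genes fell against vehicle, 0 rose and 9 did not pass (median -0.31). Rela, the p65 subunit of NF-kB, differed by -0.53 ± 0.08 (adjusted p = 7.44e-05), with all 5 combination libraries (267 to 369) under every vehicle library (434 to 547). Cebpb, a C/EBP factor of the acute-phase response, differed by -0.38 ± 0.11 (adjusted p = 0.0118), with 13 to 21 in combination and 28 to 67 in vehicle libraries, its call ended with the later label number as a covariate, and its sign changed with GC and length trends removed. Against the combination 10 of 14 were higher with the fusion protein, 0 lower and 4 not past the threshold (median 0.52). They included Rela (0.40 ± 0.08, adjusted p = 0.00349), Cebpb (0.51 ± 0.11, adjusted p = 0.00566) and Nfkb2 (0.57 ± 0.14, adjusted p = 0.00938). The calls of Cebpb and Nfkb2 ended with GC and length trends removed and among samples numbered 12 to 19, and that of Nfkb2 also with the later label number as a covariate. Socs3 was higher than in the combination (1.52 ± 0.46, adjusted p = 0.0256), a call that ended without combination replicate 2, 4 or 5, with the later label number and with trends removed.

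Receptors, partners and substrates of the 6 proteins were listed as 21 genes, of which 18 passed the filter. With the fusion protein 4 rose against vehicle, 2 fell and 12 did not pass (median 0.05). Tlr2, a receptor that recognises serum amyloid A among many ligands, rose by 0.91 ± 0.13 (adjusted p = 0.000134), with 95 to 254 in fusion protein and 20 to 36 in vehicle libraries. Mmp3, a stromelysin that TIMP1 inhibits, rose by 1.27 ± 0.20 (adjusted p = 0.000464), with 66 to 207 in fusion protein, 15 to 77 in combination and 4 to 39 in vehicle libraries. Cd63, a tetraspanin that binds TIMP1, rose by 0.57 ± 0.12 (adjusted p = 0.00269). Lrp2, the megalin receptor that takes up lipocalin 2, fell (-0.27 ± 0.07, adjusted p = 0.0115), a call that ended with GC and length trends removed and among samples numbered 1 to 8.

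Fpr2, a formyl peptide receptor for serum amyloid A, lay under the filter, with scaled values of 30 to 96 in fusion protein, 16 to 33 in combination and 7 to 20 in vehicle libraries. The fusion protein libraries of Fpr2 lay above every vehicle library. Slc22a17, a receptor of lipocalin 2, did not pass (-0.19 ± 0.12, adjusted p = 0.286), nor did Mmp9, the gelatinase that lipocalin 2 binds and TIMP1 inhibits (0.12 ± 0.20, adjusted p = 0.687). With the combination 1 of the 18 rose against vehicle, 4 fell and 13 did not pass (median 0.02). Eng, the endoglin co-receptor through which LRG1 acts in endothelium, differed by -0.56 ± 0.09 (adjusted p = 9.95e-05), with 169 to 254 in combination and 292 to 386 in vehicle libraries. Acvrl1, an endothelial TGF-beta receptor kinase of the same complex, differed by -0.34 ± 0.10 (adjusted p = 0.0129), a call that ended with GC and length trends removed and with the later label number as a covariate. Against the combination 5 were higher with the fusion protein, 1 lower and 12 not past the threshold (median 0.17).

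Of the 3 other TIMP genes, inhibitors of the same enzymes, 2 passed the filter, and with the fusion protein Timp2 fell against vehicle (-0.32 ± 0.10, adjusted p = 0.0245) while Timp3 did not pass (-0.11 ± 0.10, adjusted p = 0.422). The call of Timp2 ended without vehicle replicate 4, without fusion protein replicate 4 and among samples numbered 1 to 8. With the combination 0 of 2 passed against vehicle, and Timp2 differed by -0.00 ± 0.10 (adjusted p = 0.995). Against the combination Timp2 was lower with the fusion protein (-0.32 ± 0.10, adjusted p = 0.0252), a call that quantile normalization and 4 single omissions ended. That call also ended among samples numbered 12 to 19 (-0.28, adjusted p = 0.108). Timp3 was named after its values were seen.

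Markers of cells that can make these proteins moved as follows. Of 12 macrophage markers, all tested, 7 rose with the fusion protein against vehicle and 0 fell (median 0.43), and their summed scaled value was 3471 to 7346 in fusion protein, 2833 to 3907 in combination and 2113 to 4017 in vehicle libraries. Tyrobp, a signalling adaptor, rose by 1.15 ± 0.21 (adjusted p = 0.0013) and Aif1, a cytoskeletal protein of macrophages, by 0.47 ± 0.09 (adjusted p = 0.000852). Of 12 neutrophil markers 10 were tested, and 2 rose, 1 fell and 7 did not pass (median 0.22). Those that rose were receptors, Csf3r for G-CSF (1.20 ± 0.33, adjusted p = 0.0177) and Cxcr2 for chemokines (1.12 ± 0.34, adjusted p = 0.0258), while the granule enzyme Mpo fell (-0.48 ± 0.16, adjusted p = 0.0321). The call of Cxcr2 ended without vehicle replicate 4 or 5, and that of Mpo in 4 single omissions; without vehicle replicate 1 Mpo differed by -0.29. Among samples numbered 1 to 8 the calls of Csf3r, Cxcr2, Mpo and Tyrobp ended, with differences of 1.28, 1.30, -0.55 and 1.03.

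The summed neutrophil markers ran at 2750 to 10752 in fusion protein, 3417 to 5417 in combination and 2087 to 5466 in vehicle libraries. Fusion protein replicate 1, highest in all 6 acute-phase genes, held the highest sum of both lists, and vehicle replicate 1 held the highest sums of vehicle. Without that fusion protein library the neutrophil sum reached 5780 and the macrophage sum 4556 with the fusion protein. Against the combination 4 macrophage markers (median 0.29) and 2 neutrophil markers (median 0.06) were higher with the fusion protein and 0 were lower. With the later label number as a covariate the calls of Csf3r, Cxcr2, Aif1 and Itgam, a macrophage marker, ended (1.10, 0.83, 0.27 and 0.98). The call of Aif1 also ended with GC and length trends removed and among samples numbered 12 to 19. Those of Cd68 and Tyrobp held in all alternatives. With the combination against vehicle 1 macrophage marker rose and 0 fell (median 0.08), and 0 neutrophil markers rose and 1, Mpo, fell (median 0.13). This call of Mpo ended with the later label number as a covariate (-0.35) and without combination replicate 2 (-0.47). The part of these cells in the levels of the 6 genes was not tested.

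**Figure D4:**
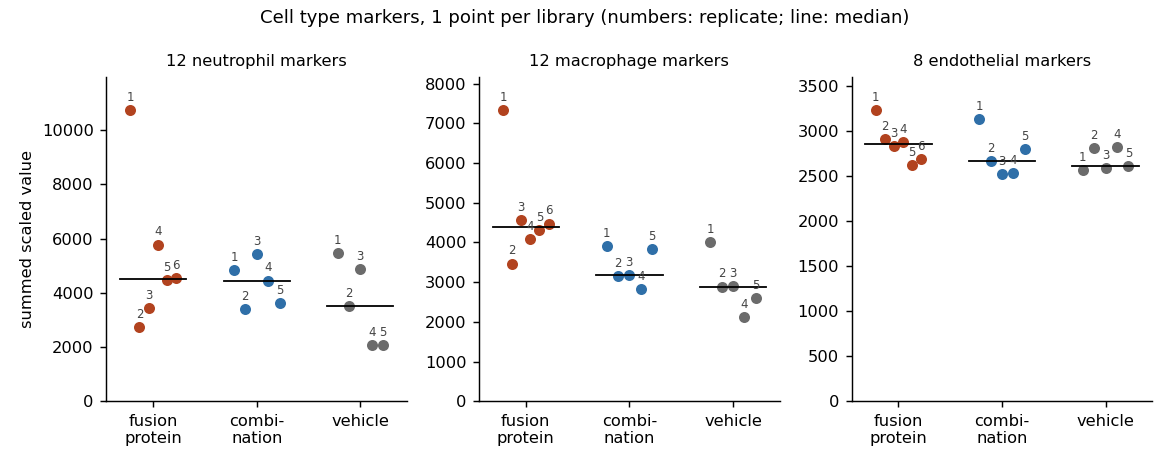
Summed scaled value of 12 neutrophil, 12 macrophage and 8 endothelial markers in each library; points carry the replicate number and lines are medians. Fusion protein replicate 1 has the highest neutrophil (10752) and macrophage (7346) sums, while the endothelial sums of the groups overlap.

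Endothelial markers summed to 2622 to 3234 in fusion protein, 2519 to 3128 in combination and 2568 to 2814 in vehicle libraries. With the fusion protein 1 of 8 rose against vehicle, 0 fell and 7 did not pass (median 0.03). With the combination 2 of 8 rose against vehicle, 1 fell and 5 did not pass (median -0.09). Hepatocyte markers, the cells that supply most circulating acute-phase protein, were near the floor: the 6 markers together summed to 16 to 28 in fusion protein, 15 to 26 in combination and 11 to 22 in vehicle libraries, and 0 of 6 passed the filter. Markers of the labelled tissue were abundant in all groups. Sensory neuron markers summed to 177541 to 279710 in fusion protein, 193742 to 225706 in combination and 182988 to 244705 in vehicle libraries.

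Other lists for cells of the ganglion gave as follows against vehicle. Of all tested genes 12.0% rose and 13.7% fell with the fusion protein, and 24.2% rose and 12.3% fell with the combination. With the fusion protein 0 satellite glia markers rose and 1 of 5 fell, and with the combination 3 rose and 0 fell. For Schwann cells 0 of 6 rose and 1 fell with the fusion protein, and 1 rose and 1 fell with the combination. Of 6 fibroblast markers 1 rose and 2 fell with the fusion protein, and 2 rose and 2 fell with the combination. Of 4 mast cell markers 1 rose with the fusion protein and 2 with the combination, and 0 fell with either. Of 4 B cell markers 0 passed with the fusion protein and 1 fell with the combination. Of 9 sensory neuron markers 1 rose and 1 fell with the fusion protein, and 2 rose and 1 fell with the combination. Of 4 T cell markers 0 passed the filter.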

How the data were processed

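PolyA-selected RNA of lumbar DRG was sequenced in 16 samples. Per the submitters' processing notes, FastQC, STAR, HTSeq and DESeq2 were used with build GRCm38; versions are not given in the sources used here. The authors deposited log2 values with a stabilised variance, and how libraries were scaled first is not stated. A curve through the 60 lowest of the 11441 different values turned 100% of them into whole numbers (tolerance 0.01), the scaled values. Depth is unknown, so no counting interval is given. GC content is given as a percent, per the file headers.

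Genes with a mean over all libraries at least 1 above the lowest value (limit 6.99) were tested, 13385 in all. A gene low in a group could pass through its other groups. Mean scaled values in vehicle were 17.4 for Mmp3, 30.6 for Tlr2 and 24.6 for Fgg, and in the combination 17.0 for Cebpb. A scaled value of 32 stood at 6.99, so these groups alone would not have passed. All groups were fitted in 1 model with limma 3.58.1 (R 4.3.3; trend and robust, two-sided tests). P-values were adjusted by Benjamini-Hochberg across every tested gene, with 0.05 as the limit, and the fit was tested on simulated data. Differences are log2 differences of group means ± SE. Annotation came from GENCODE (36429 genes matched), promoters from RefSeq. Motifs were searched and promoters aligned with Python 3.11.15 and Biopython 1.88.

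The members and lists were chosen with earlier results of these data known. Named genes outside the 6 follow a rule: up to 4 with the lowest p of each list and comparison, and 11 regulators; some named by it are not reported here. The genes most like each member were the 3 with the highest correlation. Syn1, Saa4, Timp3, Clcf1 and the genes of the closing observations fall outside the rule. Alternatives were other filters, median centring, quantile normalization, a plain limma fit, fits of both groups alone, a replicate block, the later label number (12 or above), log2 of the decoded value plus 1, removal of GC and length trends, and omission of each library. Fits within label numbers, fits without replicate 1 of both the fusion protein and vehicle, and likeness without fusion protein replicate 1, were chosen after seeing the data.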

Additional observations from a re-analysis of the deposited data

Results flagged for a closer look

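Among the 18 sets of libraries (6 genes in 3 groups), fusion protein replicate 1 stood away from the other 5 libraries of its group in 2 genes, judged on log2 values. For Saa3 (scaled value 2715, the others 318 to 527) the gap to the nearest library was 0.789 of the range of the group on the log2 scale. For Timp1 (2839, the others 606 to 1108) it was 0.625 on the log2 scale, at the limit of 0.625 for 6 samples. Chance flags about 1 set in 20.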

How the results depend on the processing

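Of the 6 genes, those called for fusion protein against vehicle numbered 2 under the stricter filter (which kept only 2 of them), 3 in a fit of both groups alone, 2 to 6 over the omission of each library, and 1 among samples numbered 1 to 8, where 2163 of all genes were called against 3450. For fusion protein against combination the count was 2 under the stricter filter (2 kept), and the median was 1.30 among samples numbered 12 to 19. On log2 of the decoded value plus 1 the medians were 2.37 against vehicle and 3.09 against the combination. All genes called in that comparison numbered 3950 (984 higher, 2966 lower), 2363 with quantile normalization (975 and 1388), 1634 with GC and length trends removed (683 and 951) and 1999 (without combination replicate 2) to 5247 over omissions, with 2496 without combination replicate 5 and 2563 without fusion protein replicate 4.

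For combination against vehicle 1 gene, Lrg1, was called lower on log2 of the decoded value plus 1 and with the replicate block, and 0 to 1 over omissions. Saa3 differed by 0.368 with the late label number, 0.105 on the decoded scale and -0.144 to 0.101 over omissions. With that number Lcn2 differed by 0.024 and Timp1 by 0.033. Cebpb differed by 0.223 with trends removed. The cause of these changes was not tested.

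The labels number replicates in each group. Deviations of same-numbered libraries correlated at -0.196 to 0.598 (median 0.06, 7 of 15 pairs over 0.1). Those of differently numbered libraries correlated at -0.858 to 0.796 (median 0.007, 22 of 70 pairs over 0.1). These ranges do not settle whether the numbers mark pairs, and the main fit did not take them as pairs. With the replicate block 3216, 5195 and 3429 genes were called for fusion protein against vehicle, combination against vehicle and fusion protein against combination, with 6, 1 and 6 of the 6 genes.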

Other observations

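Several low genes of the lists lay under the filter and were not tested; they were chosen after their values were seen. Tnf ran at scaled values of 5 to 25 (median 17.5) in fusion protein, 1 to 4 (median 3.0) in combination and 3 to 6 (median 4.0) in vehicle libraries. Fga, a fibrinogen chain, ran at 5 to 75 in fusion protein, 1 to 2 in combination and 1 to 15 in vehicle libraries, and its partner Fgb at 5 to 40 in fusion protein, 1 to 3 in combination and 1 to 23 in vehicle libraries. Fpr1, a formyl peptide receptor, ran at 18 to 69 in fusion protein, 12 to 21 in combination and 5 to 15 in vehicle libraries. Low genes of the lists were not uniformly higher with the fusion protein. The medians of Lif were 21.0 in fusion protein and 29.0 in vehicle libraries, and those of Ctf1 19.5 and 28.0. Hpx had medians of 3.5 and 6.0, and Il11 had 5.0 in both groups.

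Mt2, a zinc-binding metallothionein, was also chosen after its values were seen. It ran at 2122 to 6447 in fusion protein, 317 to 932 in combination and 335 to 3522 in vehicle libraries. Mt2 did not pass against vehicle with the fusion protein (1.41 ± 0.51, adjusted p = 0.0581) or the combination (-0.99 ± 0.53, adjusted p = 0.167), and was higher with the fusion protein than with the combination (2.40 ± 0.51, adjusted p = 0.00809).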
